A study of Homo sapiens with 4 samples.

Results

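The genes described here are 42 neighbours on the short arm of human chromosome 11, in a pair of stretches around PLEKHA7 and CD82. The stretches were chosen because their median expression was higher in AMG510-resistant than in untreated MIA-PaCa2 cells, so the members' own differences between these groups are given as a description. Where a member is said to be called, this records its row in the fit over all genes and is no independent test of the member. The first stretch runs from INSC to PRMT3 (24 members) and the second from API5 to PHF21A (18 members), and they are called the 11p15 and the 11p12-p11 stretch after the bands that hold them. Of the 57773 genes listed in the files, 41 carried a member's symbol and 1 member, CRY2-AS1, had no matching ID. Enough counts for the fit were present for 36 members, 20 in the 11p15 stretch and 16 in the 11p12-p11 stretch.

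MIA-PaCa2 is a human pancreatic cancer cell line, and AMG510 (sotorasib) is a targeted cancer drug. The resistant group held 2 libraries from populations kept for 2 months in rising doses of AMG510, ending at 5 µM, and the untreated group held 2 libraries of the same line without the drug. The labels do not say whether the drug was present at harvest, nor that replicates were cultured apart, so the spread between libraries may be technical. For resistant replicate 2 the title names AMG510 but the treatment tag AMG511, and the library was kept with the resistant ones. Both groups share the parental line and serum-containing medium, and the labels name no genetic change.

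Polyadenylated RNA was sequenced, and the libraries held 30146559 and 33074965 expected counts in resistant replicates 1 and 2, and 38052558 and 35747414 in untreated replicates 1 and 2. Levels are in CPM, the count scaled to the size of the library, and a count of 3 corresponded to between 0.0801 and 0.104 CPM. A gene was called where edgeR's quasi-likelihood test gave a Benjamini-Hochberg adjusted p below 0.05, which held for 34.0% of 16090 tested genes, 2669 higher and 2794 lower in resistant libraries. Without untreated replicate 1 the number called was 2832 in place of 5463. The epithelial keratin KRT8 stood at 962 and 1245 CPM in resistant libraries and at 3091 and 2076 CPM in untreated ones. KRT18 stood at 957 and 1222 CPM against 2282 and 1735 CPM. For KRT19 the groups overlapped, at 133 and 151 CPM in resistant libraries and 260 and 142 CPM in untreated ones. VIM stood at 7906 and 6697 CPM against 6037 and 5575 CPM, whereas KRT7, EPCAM and CDH1 were below 3 CPM in all 4. The summed level of 4 leukocyte markers was 2.04 and 2.04 CPM in resistant libraries and 10.7 and 16.3 CPM in untreated ones, nearly all of it from CD14 and LYZ in untreated libraries, with PTPRC at or below 0.134 CPM in all 4 and CD3E at 0 in both resistant libraries and in untreated replicate 2. For 3 fibroblast markers the sum was 5.24 and 2.28 CPM in resistant libraries and 0.298 and 0.267 CPM in untreated ones, with PDGFRB giving nearly all of it in resistant libraries. For 2 endothelial markers it was 5.83 and 0.977 CPM in resistant libraries and 8.42 and 4.22 CPM in untreated ones. The part of other cells in the member values was not tested.

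Cancer lines often carry gained or lost pieces of chromosomes. A gained piece tends to lift the RNA of the genes in it by a like ratio, whereas promoters and enhancers act on genes one at a time or in small clusters. The members share a place on the chromosome and not a pathway: among them are adhesion and membrane proteins, potassium channels, acute-phase proteins, enzymes and subunits of complexes that most cells use. DNA was not measured, so more gene copies and more RNA per copy cannot be told apart here, nor can a change in the share of cells from a change in RNA per cell.

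Members were mostly higher in resistant cells, by unequal amounts, and 6 of the 36 tested stood below 0. Across the 36 tested members the log2 fold change, resistant over untreated, had a median of 0.62, and its middle range (25th to 75th percentile) reached from 0.20 to 1.3. That is a width of 1.10, beside a median standard error (SE) of 0.22 for a single member. Of the 36 members, 24 lay more than 2 SE from the median, 15 above and 9 below it. Among all 16090 tested genes, 7746 lay that far from their own median. In the 11p15 stretch the median was 0.67 and the width 1.10, and in the 11p12-p11 stretch the median was 0.62 and the width 1.04. Of the 36 members, 10 (27.8%) lay within 0.25 of the common median, where 26.9% of all tested genes lay that close to theirs. All tested genes had a median of -0.01 and a width of 1.01. The members' values were thus shifted up, with a middle range about as wide as that of genes in general. Their SD was larger, 2.14 beside 1.26, and 1.74 with SAA2, which had 0 untreated counts, set at a lower bound. At or above 10 CPM on average, which leaves out SAA1 and SAA2, the SD was 0.80 in members and 0.88 in all tested genes.

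Members above 0 numbered 30 of 36, beside 49.3% of all tested genes, and 14 were at least 2-fold higher, beside 13.1%. By the adjusted p, 18 members were called higher, beside 16.6% of all tested genes, and 1 was called lower, beside 17.4%. Both resistant libraries lay above both untreated ones in 26 members, beside 34.6%, and below both in 2, beside 36.3%. Of the other 702 tested protein-coding genes of chromosome 11, 70.8% lay above 0, 251 were called higher and 47 lower. Since the stretches were picked from this contrast, nothing is read from the members' counts. Leaving out untreated replicate 1 left 12 members called higher, beside 8.99% of all genes tested in that setting. The 18 members with the lower levels per kilobase of transcript (0.193 to 5.22 CPM per kb) had a median log2 fold change of 1.05, and the 18 with the higher levels (5.27 to 150.8 CPM per kb) had one of 0.44. At or above 10 CPM on average, 28 members had a median of 0.52 and a width of 0.86, where 9806 genes at such levels had a median of -0.06 and a width of 0.84.

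**Figure D1:**
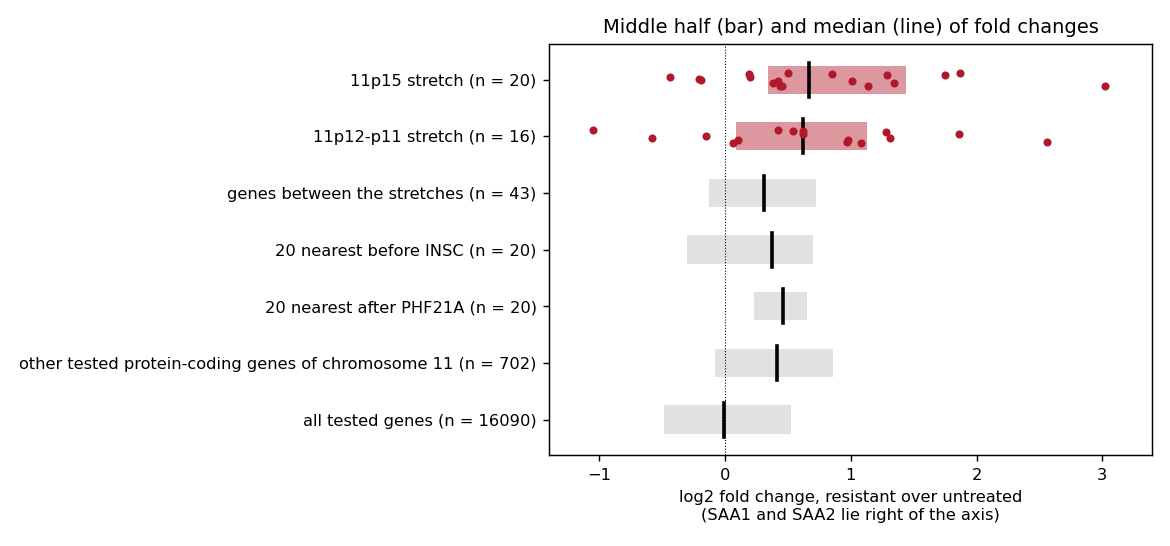
Log2 fold changes, resistant over untreated: bars span the 25th to the 75th percentile, black lines mark medians and red points are single members. Both stretches are centred right of all tested genes (medians 0.67 and 0.62 against -0.01), and their bars are about as wide as that of all tested genes (1.10 and 1.04 against 1.01).

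PLEKHA7 (ENSG00000166689), an adaptor protein of epithelial adherens junctions, had 10.6 and 9.09 CPM in the resistant libraries and 2.25 and 3.58 CPM in the untreated ones. Its log2 fold change was 1.75 (SE 0.33). The resistant values were alike and both lay above the untreated ones, which differed from each other more. CD82 (ENSG00000085117), a tetraspanin of the cell surface known for restraining cell movement, had 32.3 and 22.9 CPM in resistant libraries and 2.95 and 6.38 CPM in untreated ones. Its log2 fold change of 2.56 (SE 0.37) was the highest of the 11p12-p11 stretch. With 1 library left out it ranged from 2.13 to 3.21, the latter without untreated replicate 2, the higher of the untreated libraries. TSPAN18, another tetraspanin, had 4.97 and 1.98 CPM in resistant libraries and 0.785 and 1.12 CPM in untreated ones, with a log2 fold change of 1.86 (SE 0.52). Here the resistant libraries differed from each other more than resistant replicate 2 did from untreated replicate 2, and without resistant replicate 1 the log2 fold change was 1.07 and, as without untreated replicate 1 (1.65), the gene was not called. TSPAN18 overlaps TP53I11 on the other strand, and the counting may not separate them, so both are uncertain.

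NAV2, a cytoskeleton-associated protein first known from neurite growth, had 44.1 and 26.5 CPM in resistant libraries and 3.49 and 5.18 CPM in untreated ones. Its log2 fold change was 3.02 (SE 0.31), and the groups lay far apart although the resistant libraries differed 1.5-fold or more. Of the potassium channel genes, KCNC1 (a voltage-gated channel of fast-firing neurons) had 5.59 and 3.17 CPM in resistant libraries and 0.894 and 1.5 CPM in untreated ones, with a log2 fold change of 1.87 (SE 0.45). KCNJ11, the pore subunit of the ATP-sensitive potassium channel, had a log2 fold change of 1.34 (SE 0.34), with no overlap between groups. In KCNC1 and KCNJ11, as in NAV2, resistant replicate 1 was the higher resistant library and untreated replicate 1 the lower untreated one. Without untreated replicate 1 the log2 fold change was 1.57 for KCNC1 and 1.16 for KCNJ11, and without resistant replicate 1 it was 1.0 for KCNJ11, and in each case the gene was no longer called.

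The highest ratios came from the serum amyloid A genes, which encode acute-phase proteins that the liver releases in inflammation. SAA1 (ENSG00000173432) had 11.2 and 16.8 CPM in resistant libraries and 0.0542 and 0.107 CPM in untreated ones, from 326 and 566 counts against 2 and 4 counts. Its log2 fold change was 7.38 (SE 0.48). SAA2 (ENSG00000134339) had 4.93 and 6.90 CPM in resistant libraries, from 143 and 233 counts, and 0 counts in both untreated ones. Against a floor of 3 counts over the untreated group it was at least 149-fold higher. SAA1 and SAA2 are near-identical copies, and SAA2 overlaps SAA2-SAA4, so how reads were divided among them is uncertain. Next to them in gene order, SAAL1 (serum amyloid A like 1) had 19.0 and 27.2 CPM in resistant libraries and 31.6 and 31.2 CPM in untreated ones. Both of its resistant values lay below the untreated ones, and its log2 fold change was -0.44 (SE 0.21), the lowest of the 11p15 stretch. It was -0.72 without resistant replicate 2, when the gene was called lower, and -0.19 without resistant replicate 1.

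**Figure D2:**
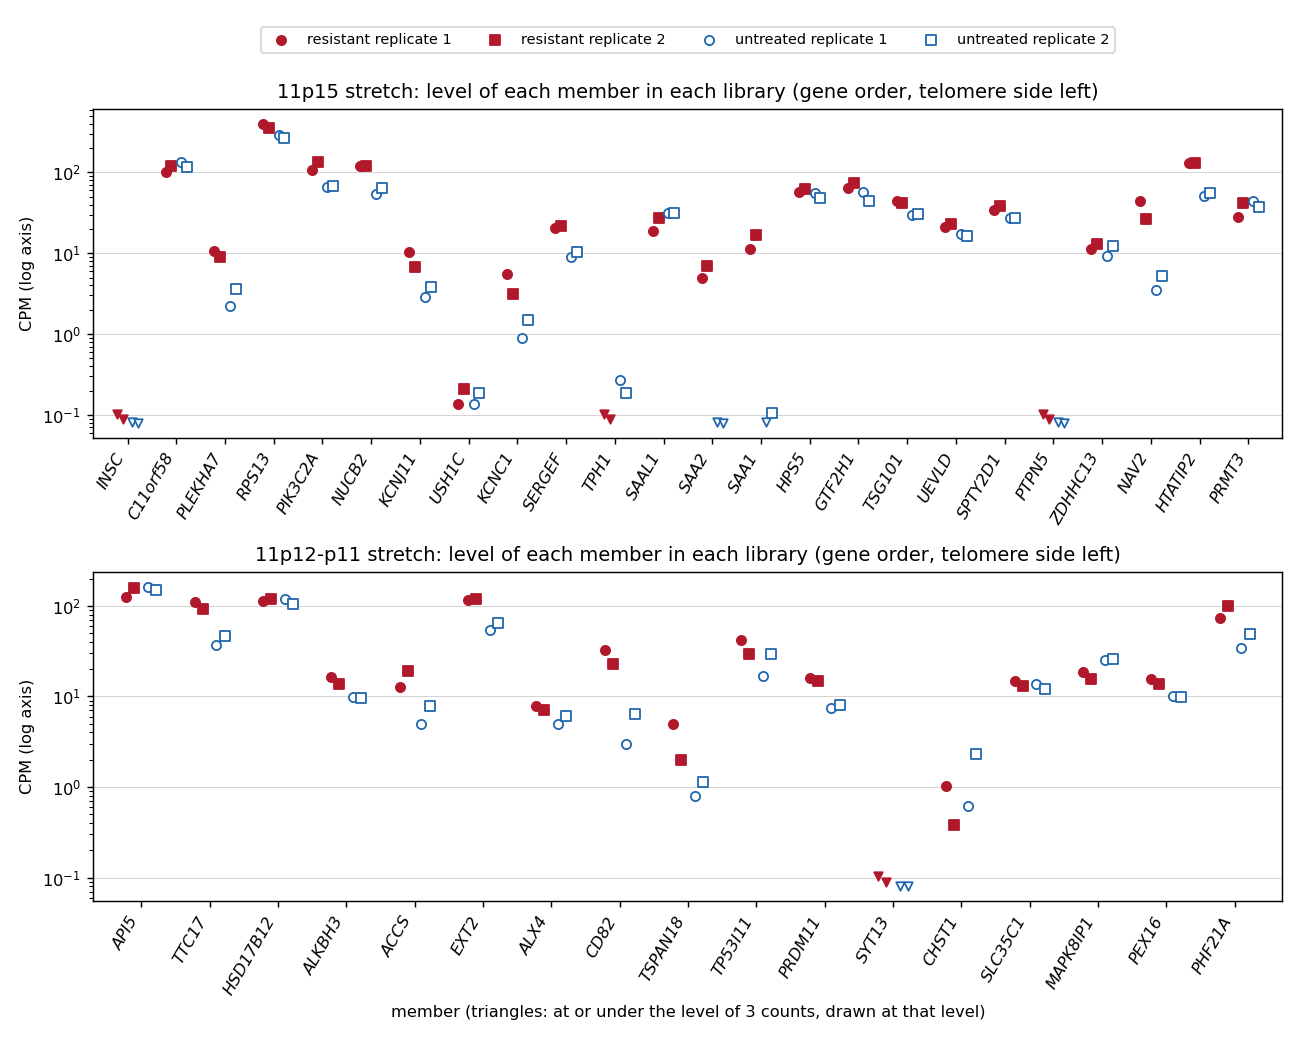
Level of each matched member in each library, in CPM on a log axis, in gene order from the telomere side; triangles mark libraries at or under 3 counts, drawn at that level. CD82, NAV2, PLEKHA7, SAA1 and SAA2 show resistant libraries (red) well above untreated ones (blue), whereas API5, HSD17B12, C11orf58 and PRMT3 overlap.

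Direct neighbours could differ. HTATIP2, a short-chain dehydrogenase-like protein known as a metastasis suppressor, had 131.1 and 131.8 CPM in resistant libraries and 51.3 and 56.0 CPM in untreated ones. PRMT3, the arginine methyltransferase of a ribosomal protein and the next tested member, had 28.3 and 42.3 CPM in resistant libraries and 44.0 and 37.6 CPM in untreated ones. HTATIP2 had a log2 fold change of 1.29 (SE 0.15) with groups well apart, and PRMT3 one of -0.21 (SE 0.21) with groups that overlapped. Likewise API5, an inhibitor of apoptosis, had 124.5 and 156.0 CPM in resistant libraries and 160.7 and 150.3 CPM in untreated ones. Its neighbour TTC17, a tetratricopeptide repeat protein with a role in actin assembly, had 109.6 and 91.4 CPM in resistant libraries and 36.9 and 46.0 CPM in untreated ones. The API5 groups overlapped, with a log2 fold change of -0.15 (SE 0.17), whereas the TTC17 groups lay apart, with one of 1.28 (SE 0.18). Without resistant replicate 1 the direction turned for PRMT3 (0.07) and API5 (0.02).

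To show what lies before the start sites of these unlike neighbours, and of CD82, the 250 bases upstream of each are given 5′ to 3′ on the gene's strand, the plus strand in all 5, from RefSeq on GRCh38.p14. They are at chr11:20363464-20363713 (HTATIP2), chr11:20387466-20387715 (PRMT3), chr11:43311746-43311995 (API5), chr11:43358670-43358919 (TTC17) and chr11:44565413-44565662 (CD82). Capitals mark matches, on either strand, to the GC box GGGCGG, the CCAAT box (CCAAT) and the E-box CACGTG.
HTATIP2: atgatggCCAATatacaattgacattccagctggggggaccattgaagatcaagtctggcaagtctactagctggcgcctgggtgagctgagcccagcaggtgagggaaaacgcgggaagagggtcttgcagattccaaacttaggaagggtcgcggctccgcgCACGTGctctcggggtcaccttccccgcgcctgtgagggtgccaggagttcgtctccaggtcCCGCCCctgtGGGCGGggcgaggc
PRMT3: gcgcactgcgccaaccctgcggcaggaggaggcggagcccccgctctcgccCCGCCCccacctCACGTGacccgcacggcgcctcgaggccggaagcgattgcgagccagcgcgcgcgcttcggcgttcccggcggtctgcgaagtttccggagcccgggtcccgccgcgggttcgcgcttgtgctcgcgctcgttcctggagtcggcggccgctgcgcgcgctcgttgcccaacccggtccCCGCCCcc
API5: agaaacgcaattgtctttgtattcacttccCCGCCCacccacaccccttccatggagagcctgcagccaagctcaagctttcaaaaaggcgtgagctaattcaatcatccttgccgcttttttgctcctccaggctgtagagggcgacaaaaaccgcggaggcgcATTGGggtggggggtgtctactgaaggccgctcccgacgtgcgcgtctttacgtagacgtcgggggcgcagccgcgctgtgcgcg
TTC17: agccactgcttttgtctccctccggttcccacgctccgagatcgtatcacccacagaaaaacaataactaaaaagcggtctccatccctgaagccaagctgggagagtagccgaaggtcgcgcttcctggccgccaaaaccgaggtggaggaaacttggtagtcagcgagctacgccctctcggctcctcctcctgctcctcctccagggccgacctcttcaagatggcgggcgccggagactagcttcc
CD82: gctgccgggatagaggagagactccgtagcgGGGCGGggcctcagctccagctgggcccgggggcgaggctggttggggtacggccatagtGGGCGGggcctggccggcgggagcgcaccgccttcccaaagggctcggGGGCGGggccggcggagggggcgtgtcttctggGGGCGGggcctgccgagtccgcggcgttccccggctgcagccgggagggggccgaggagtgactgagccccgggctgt
HTATIP2 and PRMT3 each held 2 GC boxes and 1 E-box, and HTATIP2 also a CCAAT box. API5 held 1 GC box and 1 CCAAT box, TTC17 none of these motifs, and CD82 4 GC boxes. None of the marked matches overlapped another. Of 35116 upstream windows of all genes in the table, 42.6% held a GC box, 32.0% a CCAAT box and 6.34% an E-box, and of 49 windows of the 30 members found there 31, 14 and 5 did. The AP-1 site TGANTCA and the TATA box TATAAA, also searched on both strands, stood in 6.57% and 10.7% of all windows and in 5 and 3 of the 49. HTATIP2 and PRMT3, unlike in fold change, both held GC boxes and an E-box. TTC17 held none of the 5 motifs, so it could share none with CD82 or any other gene. These genes were chosen after their values were seen, and a link between motifs and fold changes was not tested.

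**Figure D3:**
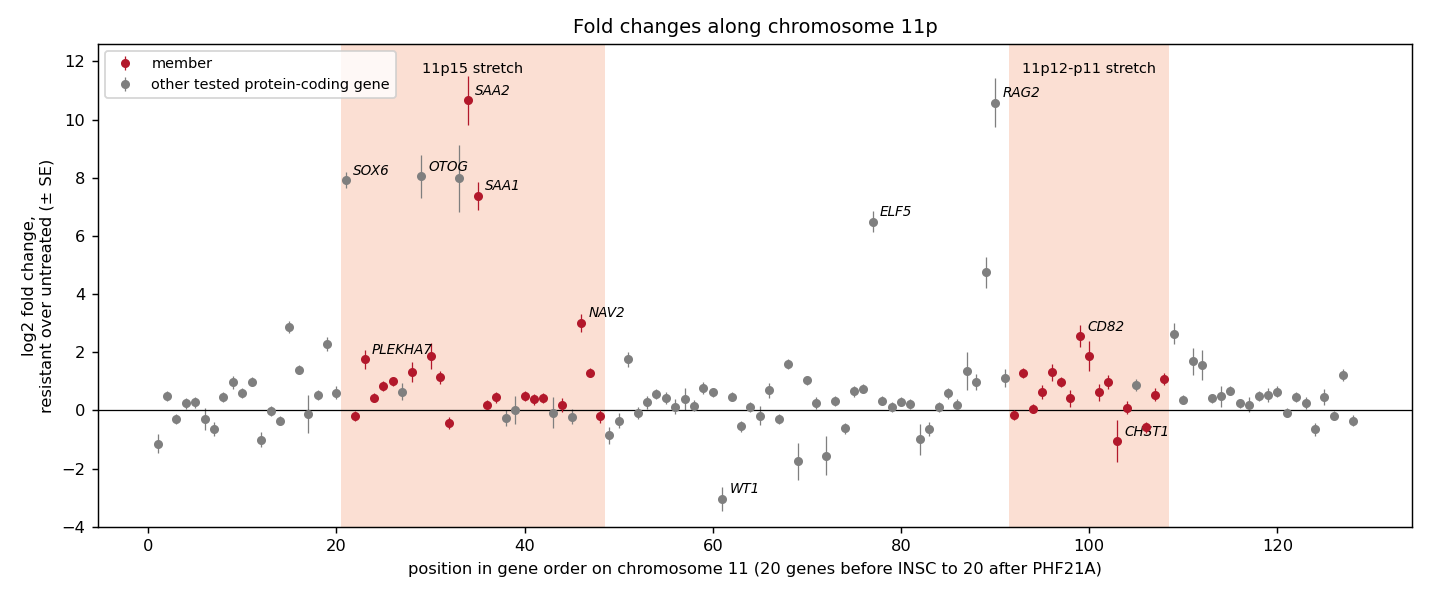
Log2 fold change (resistant over untreated, bars ± SE) of each tested protein-coding gene by its place in gene order, members in red and other genes in grey, stretches shaded. High and near-zero values occur in both stretches, in part as runs: from HPS5 to E2F8 in the 11p15 stretch all lie between -0.25 and 0.50. SOX6, OTOG, SAA2-SAA4, ELF5 and RAG2 outside the members stand above 6. SAA2, SAA2-SAA4 and RAG2 had 0 untreated counts and OTOG had 1, so their plotted heights depend on the prior count.

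Consecutive tested members of the 11p15 stretch differed by a median of 0.73 in log2 fold change over 19 pairs, where all 190 pairs of that stretch differed by 0.95. In the 11p12-p11 stretch the medians were 0.70 over 15 consecutive pairs and 0.88 over all 120 pairs. Of the consecutive pairs, 9 in the 11p15 stretch and 7 in the 11p12-p11 stretch differed by more than 1, a 2-fold step. The 11p15 values take SAA2 at 10.67, a height that depends on the prior count, as SAA2 had 0 untreated counts. At its lower bound of 7.22 SAA2 would differ from SAA1 (7.38) by less than 1. The 11p15 count and consecutive median would then be lower, and they were not recomputed. Other tested genes lie between the members of some pairs, as E2F8 does between ZDHHC13 and NAV2.

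The 3 most abundant members of the 11p15 stretch were near unity or moderately higher. HTATIP2 and NUCB2, at mean levels close to that of PIK3C2A, had log2 fold changes of 1.29 and 1.01. RPS13, a protein of the small ribosomal subunit, had 402 and 356 CPM in resistant libraries and 291 and 269 CPM in untreated ones, a log2 fold change of 0.44 (SE 0.16). PIK3C2A, a lipid kinase of endocytosis and cilia, had 106.9 and 134.9 CPM in resistant libraries and 66.0 and 68.2 CPM in untreated ones, with one of 0.85 (SE 0.17). Both genes had resistant values above all untreated ones, and they share an exon region on the same strand, so the split of reads between them is uncertain. C11orf58 had 100.3 and 119.0 CPM in resistant libraries and 135.1 and 115.3 CPM in untreated ones, a log2 fold change of -0.19 (SE 0.17) with overlapping groups. It lies across SOX6 on the other strand, a gene that was far higher in resistant libraries, and is uncertain too.

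Other members of the 11p12-p11 stretch differed in the same way. EXT2, which builds heparan sulfate chains, had 116.1 and 118.3 CPM in resistant libraries and 53.9 and 64.9 CPM in untreated ones, and its log2 fold change was 0.98 (SE 0.16). HSD17B12, the ketoreductase of fatty acid elongation, had 112.8 and 119.0 CPM in resistant libraries and 118.3 and 103.6 CPM in untreated ones. Its groups overlapped and its log2 fold change of 0.06 (SE 0.16) was -0.04 without untreated replicate 2. ACCS, a homologue of a plant enzyme of ethylene synthesis, had 12.8 and 18.9 CPM in resistant libraries and 4.98 and 7.83 CPM in untreated ones. The groups did not overlap, with a log2 fold change of 1.31 (SE 0.30) that was 1.04 without untreated replicate 1, when the gene was not called. SLC35C1, the GDP-fucose transporter of the Golgi, had a log2 fold change of 0.10 (SE 0.23) with overlapping groups.

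A few other members stood near or below 0. MAPK8IP1, a scaffold of the JNK kinase cascade, had 18.6 and 15.4 CPM in resistant libraries and 25.2 and 25.7 CPM in untreated ones, a log2 fold change of -0.58 (SE 0.20). It was the one member called lower, and that call was lost without resistant replicate 2 (log2 fold change -0.45), without untreated replicate 1 (-0.57) or 2 (-0.58), and with a block for the replicate number (-0.59). CHST1, a sulfotransferase that acts on keratan sulfate, had 1.03 and 0.385 CPM in resistant libraries and 0.623 and 2.30 CPM in untreated ones. Its groups overlapped, and its log2 fold change of -1.05 (SE 0.71) was 0.17 without untreated replicate 2. ZDHHC13, a palmitoyltransferase, had 11.4 and 13.1 CPM in resistant libraries and 9.15 and 12.3 CPM in untreated ones, with overlapping groups and a log2 fold change of 0.19 (SE 0.25).

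The other members lay between these. Members of the 11p15 stretch with a log2 fold change over 1 were NUCB2, a calcium-binding protein and the precursor of nesfatin (1.01, SE 0.16), and SERGEF (1.14, SE 0.22). Subunits of common complexes had smaller values, namely TSG101 of the endosomal sorting complex ESCRT-I (0.50, SE 0.17), GTF2H1 of the transcription and repair factor TFIIH (0.45, SE 0.18) and HPS5 of the lysosome-related organelle complex BLOC-2 (0.20, SE 0.16). The call of TSG101 was lost whichever library was left out, at log2 fold changes of 0.47 and 0.54 without resistant replicates 1 and 2, and of 0.49 and 0.52 without untreated replicates 1 and 2. It was lost with the replicate block as well (0.50). SPTY2D1, a histone chaperone, and UEVLD, a relative of TSG101, stood at 0.42 (SE 0.17) and 0.38 (SE 0.20).

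In the 11p12-p11 stretch the chromatin proteins PHF21A and PRDM11 had values of 1.08 (SE 0.21) and 0.97 (SE 0.24), and PRDM11 was not called without untreated replicate 1 (0.93). ALKBH3, which repairs alkylated nucleic acids, stood at 0.62 (SE 0.23) and overlaps the pseudogene SEC14L1P1. TP53I11 also stood at 0.62 (SE 0.28), with 42.3 and 29.5 CPM in resistant libraries against 17.0 and 29.6 CPM in untreated ones, and its groups overlapped. It was called higher without untreated replicate 2 (1.07) and without resistant replicate 2 (0.86). PEX16, which starts the making of peroxisomes, and the homeobox factor ALX4 had 0.54 (SE 0.23) and 0.42 (SE 0.29), and neither gene's groups overlapped.

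Too few counts for the fit were found in 5 members. In resistant libraries INSC had 0 and 2 counts, USH1C 4 and 7, TPH1 1 and 2, PTPN5 2 and 1 and SYT13 none. In untreated libraries INSC had 0 and 1 counts, USH1C 5 and 7, TPH1 10 and 7, PTPN5 1 and 0 and SYT13 none. INSC helps to orient the mitotic spindle, USH1C is a scaffold of sensory hair cells, TPH1 makes serotonin, PTPN5 is a phosphatase of neurons and SYT13 a synaptotagmin. TPH1 had fewer counts in both resistant than in both untreated libraries, but none of the 5 was tested, and they are in no median or count above.

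The gene-to-gene differences recurred in library pairs that share no library. Pearson's r over the 36 tested members was 0.883 between the log2 ratios of resistant 1 over untreated 1 and of resistant 2 over untreated 2, and 0.970 for the other pairing of the same libraries. Without SAA1 and SAA2 it was 0.658 and 0.898 over 34 members, and over all 16090 tested genes 0.770 and 0.783. These are descriptions over genes of 4 libraries, and the genes are not independent. In both pairings 28 members lay above 0 in each pair, beside 6343 and 6214 of all 16090 tested genes. The medians of the members in the 4 library pairs lay between 0.62 and 0.71. The members were picked from this contrast, so nothing is read from their direction.

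**Figure D4:**
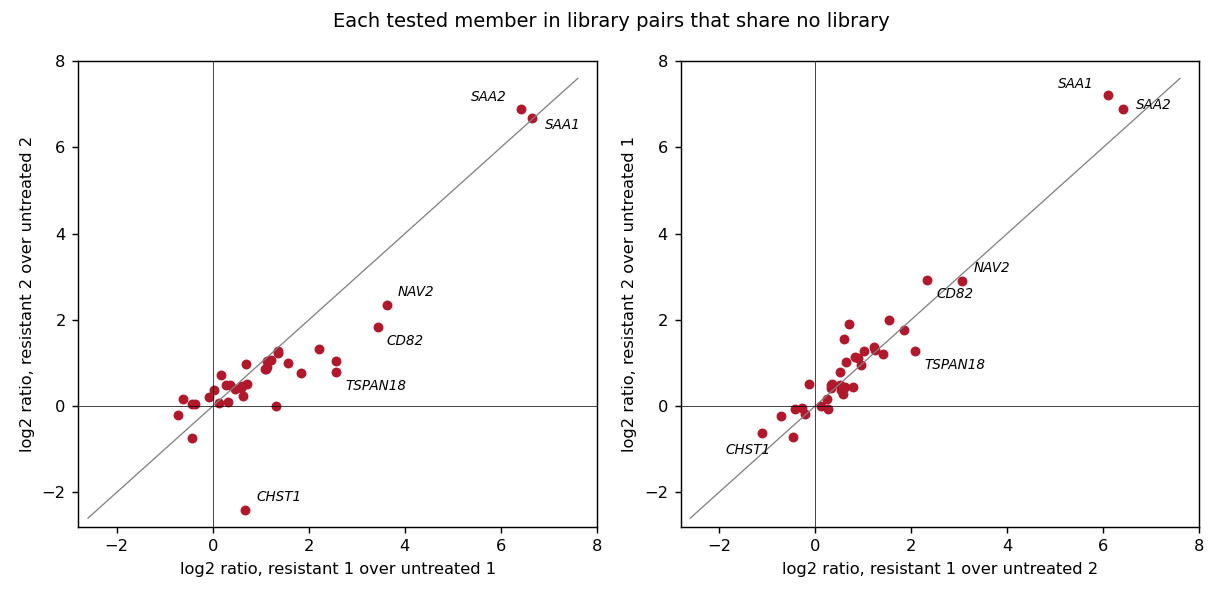
Each point is a tested member, plotted by its log2 ratio of CPM in a resistant over an untreated library, in 2 pairings that share no library; the line marks equal ratios. SAA1, SAA2, NAV2 and CD82 are at the upper end on both axes of both panels, and CHST1 changes sign between the axes of the left panel.

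Within each group the members were mostly alike. Between the resistant libraries 5 members differed by over 1.5-fold, all higher in replicate 1, which is 13.9% of members beside 18.7% of all tested genes. Between the untreated libraries 6 members did, all lower in replicate 1, which is 16.7% beside 17.9%. Among all tested genes the resistant libraries split evenly (1510 higher and 1501 lower in replicate 1), and the untreated ones did not (637 higher and 2241 lower in replicate 1).

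The genes around the stretches had medians above 0 and below those of the members. The 43 tested protein-coding genes between PRMT3 and API5 had a median log2 fold change of 0.31. Of them 15 rose, 4 fell and 24 were not called, beside 16.6% higher and 17.4% lower among all tested genes. Of the 702 tested protein-coding genes of chromosome 11 outside the members, a set that includes these 43, 251 rose and 47 fell. The 20 nearest tested genes before INSC had a median of 0.37 (9 rose, 2 fell and 9 were not called). The 20 after PHF21A had one of 0.46 with a width of 0.42 (8 rose, 1 fell and 11 were not called). Without untreated replicate 1, 8 rose and 2 fell between the stretches, 6 rose and 0 fell before INSC and 3 rose and 0 fell after PHF21A, beside 8.99% higher and 7.87% lower among all genes. Without resistant replicate 1, 4 rose and 0 fell after PHF21A and 6 rose and 1 fell before INSC. Without resistant replicate 2, 11 rose and 2 fell between the stretches, and without untreated replicate 2, 5 rose and 2 fell before INSC and 6 rose and 0 fell after PHF21A. The other 702 tested protein-coding genes of chromosome 11 had a median of 0.41, against -0.04 for all 12858 tested protein-coding genes. Both members' medians, 0.67 and 0.62, lay above these, and since the stretches were picked for their medians, the gap was not tested.

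Single neighbours varied widely too. SOX6, a developmental transcription factor inside the 11p15 stretch, averaged 112.0 ± 6.12 CPM in resistant libraries and 0.456 ± 0.186 CPM in untreated ones (SD, n = 2 each), and OTOG, an inner ear matrix protein there, had 287 counts against 1, a ratio of 341 (exact 95% interval 60.7 to 13505, counting error only). LDHA in the same stretch, the lactate dehydrogenase of glycolysis, had a log2 fold change of -0.25 (SE 0.28). At the borders, PDE3B before INSC rose (2.27, SE 0.24), as did CREB3L1 after PHF21A (2.64, SE 0.35) and IFTAP before API5 (1.11, SE 0.31), and their adjusted p by edgeR's quasi-likelihood test were 1.22e-04, 0.00248 and 0.0184. IFTAP missed the threshold without resistant replicate 1 (0.0512) or untreated replicate 1 (0.104). CYP2R1 before INSC (0.61, adjusted p = 0.0496) and FANCF after PRMT3 (-0.86, adjusted p = 0.0411) lost their calls whichever library was left out, with adjusted p from 0.0944 to 0.179 for CYP2R1 and from 0.0991 to 0.13 for FANCF. CCDC34 after PRMT3 and DGKZ after PHF21A had -0.36 and 0.38 and were not called.

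Between the stretches, ELF5, an epithelial transcription factor, averaged 163.9 ± 17.6 CPM in resistant libraries and 1.81 ± 1.03 CPM in untreated ones (edgeR adjusted p = 2.15e-05). RAG2, a subunit of the recombinase of lymphocytes, was at least 139-fold higher against a floor of 3 counts over the untreated group, and RAG1, the other subunit, had a log2 fold change of 4.75 (SE 0.53). RAG2 overlaps RAG1 and IFTAP on the other strand, and the counts of all 3 are uncertain. WT1, a transcription factor of kidney and gonad development, fell to 1.14 ± 0.440 CPM in resistant libraries, against 9.41 ± 3.50 CPM in untreated ones (edgeR adjusted p = 5.77e-04). It overlaps the antisense gene WT1-AS and is uncertain, and KIAA1549L (-1.75) and LMO2 (-1.55) were not called.

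Genes that work with the members, wherever they lie in the genome, were not higher at the median. Some of these partners lie on chromosome 11 themselves. Among them are MAP3K11 and the 1 small ribosomal subunit gene that rose, and most others there were not called. Over 12 lists of partners, 102 tested genes had a median log2 fold change of -0.11, and 14 rose and 22 fell, where 16.6% and 17.4% of all tested genes did. Without untreated replicate 1, 8 rose and 12 fell, beside 8.99% and 7.87% of all genes. For TSG101 the 8 ESCRT-I partners had a median of 0.31 and 2 rose, VPS37D (0.99) and UBAP1 (0.62). For GTF2H1 the 9 TFIIH partners had a median of -0.26 and 3 fell, among them MNAT1 (-1.20) and CCNH (-0.72), a kinase assembly factor and a cyclin. HPS5 had 2 BLOC-2 partners, of which HPS3 rose to 176.6 ± 25.2 CPM in resistant libraries, against 56.0 ± 9.54 CPM in untreated ones, and HPS6 fell (-0.91).

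For EXT2, its polymerase partner EXT1 rose (1.32) and EXTL2 fell (-1.08), with the other 2 of 4 not called. Of 31 other small ribosomal subunit proteins 1 rose and 5 fell, RPS21 (-0.70) and RPS29 (-0.62) among them, around a median of -0.10 beside 0.44 for RPS13. Each of these calls was lost without resistant replicate 2 and without untreated replicate 1. The 1 that rose lost its call whichever library was left out, at log2 fold changes from 0.43 to 0.56, beside 0.49 with all 4. Why the calls were lost was not tested. Of 7 other arginine methyltransferases 3 fell, including PRMT5 (-1.51) and PRMT1 (-0.85). Among 9 fatty acid elongation genes 3 rose and 2 fell, with ELOVL5 at 0.95 and ELOVL6 at -1.95, and 1 fell without resistant replicate 2, untreated replicate 1 or untreated replicate 2. The KDM1A-CoREST complex that PHF21A joins had 3 of 5 partners lower, HDAC1 (-1.08) and HDAC2 (-0.85) among them, beside 1.08 for PHF21A.

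PEX3 fell (-0.94), 1 of 2 early peroxisome factors, and none of 3 relatives and partners of PIK3C2A was called by edgeR, but 1 rose without untreated replicate 2. Of 15 other tetraspanins 5 rose and 2 fell, TSPAN1 (-1.32) and TSPAN3 (-0.93), around a median of 0.30 beside 2.56 for CD82. The highest of the 15 stood at 2.08. Some that rose lost their calls when either untreated library was left out. Of 7 genes of the JNK pathway MAP3K11 rose (0.54) and MAPK9 fell (-0.77). UBAP1, CCNH, HPS3, RPS29 and PRMT1 overlap other expressed genes, so their counts are uncertain. By edgeR's quasi-likelihood test with Benjamini-Hochberg adjustment the partner genes named had adjusted p between 1.62e-04 for HPS3 and 0.0394 for MAP3K11. Without untreated replicate 1 the calls of HPS6 (0.0561), VPS37D (0.0773), EXTL2 (0.0735), PEX3 (0.0729), RPS21 (0.0631), RPS29 (0.153) and MAP3K11 (0.0553) were lost. Without resistant replicate 2 those of UBAP1 (0.12), RPS21 (0.0507) and RPS29 (0.119) were, and without resistant replicate 1 those of EXTL2 (0.0746), PEX3 (0.0587) and MAP3K11 (0.29). Without untreated replicate 2 those of UBAP1 (0.0887), EXTL2 (0.0715) and MAP3K11 (0.182) were.

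**Figure D5:**
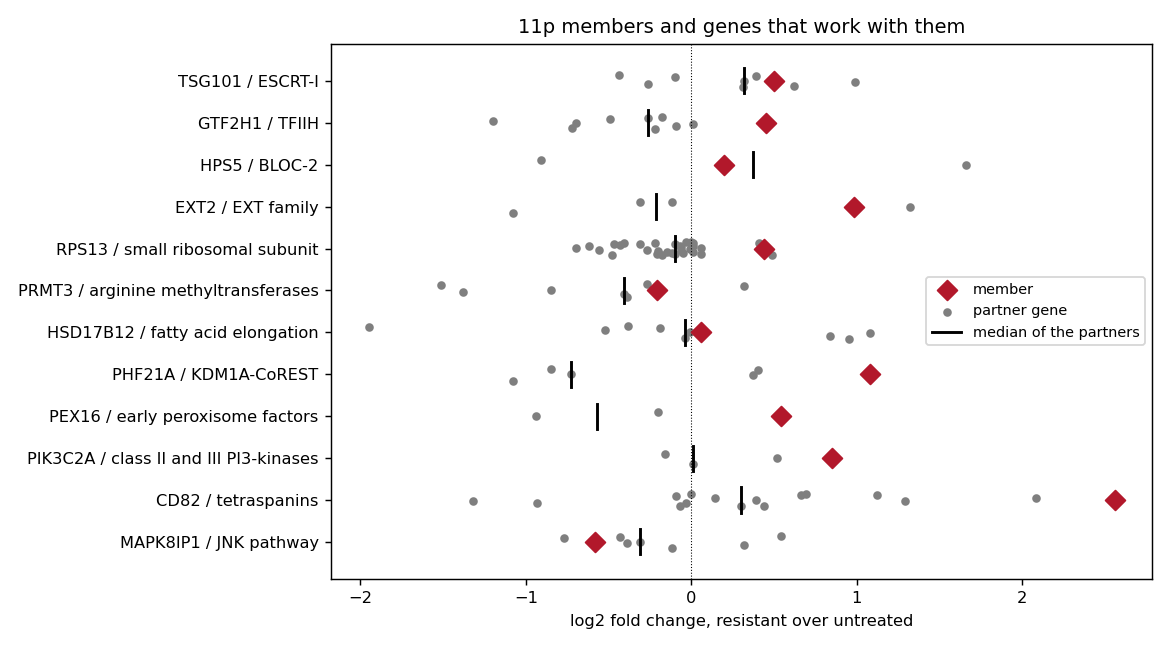
Log2 fold change, resistant over untreated, of 12 members (red diamonds) and of the tested genes that work with each (grey points, black line at their median). Of the 12 members 10, CD82 and PHF21A among them, lie right of their partners' medians, and HPS5 and MAPK8IP1 lie left of theirs. The members come from stretches picked for raised medians in this contrast, so nothing is read from this count.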

How the data were processed

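Polyadenylated RNA of MIA-PaCa2 cells was measured in 2 resistant and 2 untreated libraries, and the titles of the samples gave the groups. The authors deposited unscaled expected counts for each gene, per the file headers. Per the submitters' processing notes, STAR 2.7.2b, RSEM 1.3.1 and the build GRCh37 were used. The annotation release and strand setting are not given in the sources used here. Counts were rounded to whole numbers (93.6% already were) and fitted with edgeR 4.0.16 (filterByExpr, TMM, robust quasi-likelihood F-test with group as the one factor, Benjamini-Hochberg adjustment over 16090 genes). Calls were made below an adjusted p of 0.05, rose and fell are written of called genes only, and log2 ratios of single libraries use a prior count of 2. The fit was tested on simulated data. With 2 against 2 libraries an exact permutation test of 1 value cannot go below 0.333, so none was run.

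The members, the gene lists and the tests were chosen with earlier results of these data known. Per-library values are given for PLEKHA7, CD82 and, in each stretch, the 4 highest, 4 lowest and 3 most abundant members. Other named genes are the 2 nearest on each side of a stretch, the 3 highest and 3 lowest between the stretches, and up to 2 called partners per list. HTATIP2, TP53I11, SOX6, OTOG and LDHA, and the 5 genes with printed sequence, were chosen after their values were seen. Gene order and overlaps come from GENCODE 29, which is on another build, so the only coordinates given are those of the RefSeq sequences. Alternatives were DESeq2 1.42.0, RLE and upper-quartile scaling, no filter, 1 CPM in 2 libraries, edgeR's newer form, a replicate block, and each library left out in turn.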

Additional observations from a re-analysis of the deposited data

How the results depend on the processing

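Under DESeq2, RLE and upper-quartile scaling, no filter, a stricter filter, the newer edgeR form and the replicate block, the median log2 fold change was 0.67 to 0.71 in the 11p15 stretch and 0.62 to 0.65 in the 11p12-p11 stretch. The spread over the members was 1.01 to 1.13, 5201 to 6235 genes were called, and 17 to 20 members were called higher. The median of the genes between the stretches was 0.35, in place of 0.31, with at least 1 CPM in 2 libraries. Leaving out each library in turn gave 2832 to 5041 genes called, 12 to 18 members called higher, medians of 0.61 to 0.78 for the 11p15 stretch, 0.49 to 0.80 for the 11p12-p11 stretch and 0.27 to 0.43 between the stretches, and a spread (25th to 75th percentile) over the members of 0.88 to 1.22. Directions turned in 4 members, none of them called, with log2 fold changes from -0.32 to 0.02 for API5, -0.53 to 0.07 for PRMT3, -1.89 to 0.17 for CHST1 and -0.04 to 0.18 for HSD17B12. The cause was not tested. With a library left out, 1 group has a single library, which is assumed to vary like the others.

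Same-numbered libraries did not deviate together (r = -0.06 over 16090 genes), and the main fit paired no samples. Such a value cannot show that same-numbered libraries were handled apart. The replicate block gave 5275 genes called, and TSG101 and MAPK8IP1 lost their calls. Among members not called, RPS13 was called with DESeq2, upper-quartile scaling and the stricter filter, TP53I11 with no filter and without resistant or untreated replicate 2, SAAL1 without resistant replicate 2, and ALKBH3 with the stricter filter, under which CHST1 was not tested. MAPK8IP1 also lost its call with upper-quartile scaling. With 2 libraries per group the precision of a single member's fold change is low, and the 5 members under the filter gave none.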
